A study of Mus musculus with 8 samples.

Results

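The genes described here encode 5 inhibitors that ERK signalling switches on against itself: the phosphatase genes Dusp2, Dusp4 and Dusp6, the Sprouty gene Spry1 and the Sprouty-related gene Spred1. They were followed in a ChIP-seq study of H3K27me3, the histone mark that Polycomb repressive complex 2 deposits at repressed genes, in mouse embryonic stem cells. An interval of the deposited count table was taken for a gene when the stretch it shared with that RefSeq gene made up 0.5 or more of their joint span. This gave 6 intervals for the 5 genes, out of 20227 genes in all: 1 each for Dusp2, Dusp4, Dusp6 and Spry1, identical to the RefSeq span, and 2 for Spred1, with overlaps of 1 and 0.846.

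Treated cells had received 250 nM 4-hydroxytamoxifen (4OHT) for 2 h, and untreated cells (0 h) none. All cells, untreated ones included, were E14tg2a stem cells of 129SV background that carried a stable cRAF-ErT2 cassette, a RAF kinase activated by 4OHT. All had also been kept in serum with LIF and 2 µM Chir99021, which inhibits GSK3, and for the last 24 h with 250 nM of the FGF receptor blocker PD173074 in place of Chir99021. Each time was sampled in clone A and clone B, so every group holds 2 H3K27me3 libraries and the same clones return at both times. The promoter of the cassette is not given in the sources used here, and 4 input libraries were not analysed here.

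When growth factor receptors activate RAS, the kinases RAF, MEK and ERK follow in turn, and ERK then raises transcription of its own inhibitors. Dual-specificity phosphatases remove the activating phosphates from ERK: DUSP6 acts in the cytoplasm and is selective for ERK, while DUSP2 and DUSP4 act in the nucleus. Sprouty and Spred proteins act further up, where they hold back RAS and RAF, and SPRED1 brings the RAS inactivator neurofibromin to the membrane. In embryonic stem cells FGF-driven ERK activity favours exit from the naive pluripotent state.

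Column totals ran from 70378127 to 92518605 counts, and the median gene had a density of 0.357, density being the counts per kb of an interval for every 1000000 counts in its column. As checks of the mark, 20 Hoxa and Hoxd genes stood at 9.67 to 15.6 times the median gene, and the housekeeping genes Actb and Gapdh at 0.272 and 0.183 times, though B2m, also chosen as a low control, stood at 2.48 times. The labelled cell type could not be checked, because the assay reads a histone mark and not expression.

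The 5 genes spanned a wide range of H3K27me3, from a strongly marked Dusp2 to a Spred1 below the median gene. Dusp2, the nuclear ERK phosphatase first known from activated lymphocytes, averaged 10.0 times the median gene, Dusp4 3.41 times, Spry1 1.99 times, Dusp6 1.23 times and Spred1 0.448 times. Taking at least 4 times the median gene as marked, 1 of the 5 genes was marked, beside 5.78% of all genes. Dusp4 lay just under that limit, with 3.18 to 3.68 times over its 4 libraries. Between neighbours in this order the 4 libraries of the higher gene all lay above those of the lower, and the mean densities differed 2.95-fold for Dusp2 over Dusp4, 1.72-fold for Dusp4 over Spry1, 1.62-fold for Spry1 over Dusp6 and 2.74-fold for Dusp6 over Spred1. These are levels per length and were not tested. The intervals run over whole transcripts, so mark confined to a promoter counts for less in the 61209 bp of Spred1 than in the 2219 bp of Dusp2.

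**Figure D1:**
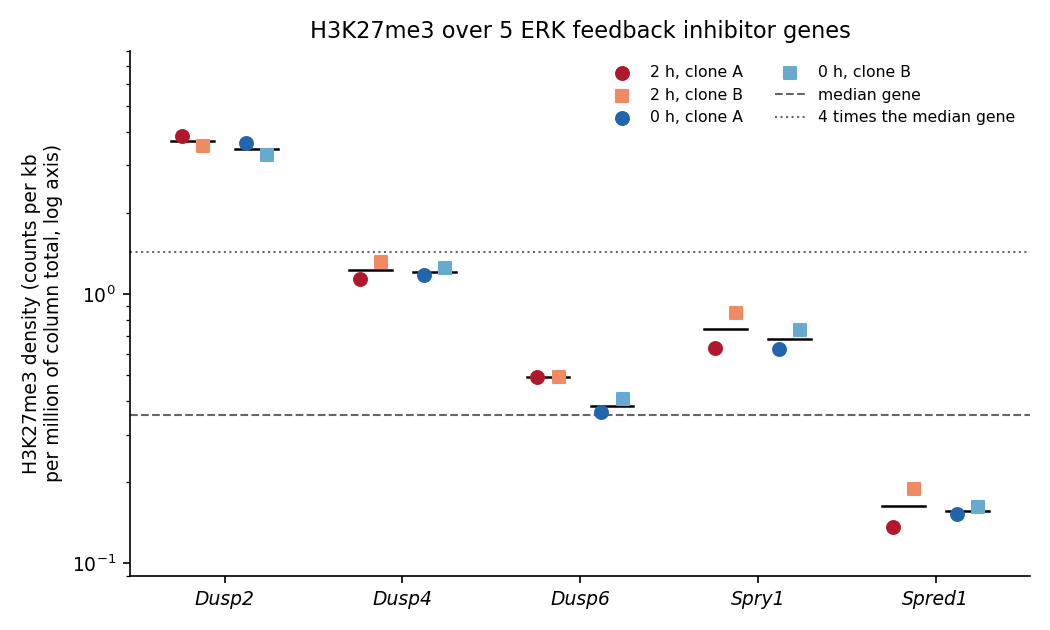
H3K27me3 density (counts per kb per 1000000 counts, log axis) of each gene in the 4 libraries, 2 h left of 0 h, with bars at the mean of each time. Dusp2 lies between 3.28 and 3.87 in all libraries and Spred1 between 0.137 and 0.189, on either side of the dashed median gene at 0.357.

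Promoter sequences from RefSeq (GRCm38.p6, the assembly behind mm10) were found for 4 of the 5 genes, Dusp2, Dusp6, Spry1 and Spred1. Those of the most and the least marked gene and of Dusp6, which had the largest estimated change over time, are shown 5′ to 3′, with each CG dinucleotide in capitals because Polycomb marks in stem cells gather at CG-rich promoters. Each holds 250 bases before the transcript start and 50 after it, all on the plus strand: chr2:127335909-127336208 for Dusp2, chr10:99262981-99263280 for Dusp6 and chr2:117120821-117121120 for Spred1.
Dusp2: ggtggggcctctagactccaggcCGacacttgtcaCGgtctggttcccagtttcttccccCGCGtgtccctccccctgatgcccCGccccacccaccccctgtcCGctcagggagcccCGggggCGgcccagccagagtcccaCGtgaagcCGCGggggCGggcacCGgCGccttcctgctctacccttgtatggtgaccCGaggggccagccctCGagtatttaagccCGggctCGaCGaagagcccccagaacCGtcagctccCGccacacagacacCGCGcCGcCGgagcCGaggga
Dusp6: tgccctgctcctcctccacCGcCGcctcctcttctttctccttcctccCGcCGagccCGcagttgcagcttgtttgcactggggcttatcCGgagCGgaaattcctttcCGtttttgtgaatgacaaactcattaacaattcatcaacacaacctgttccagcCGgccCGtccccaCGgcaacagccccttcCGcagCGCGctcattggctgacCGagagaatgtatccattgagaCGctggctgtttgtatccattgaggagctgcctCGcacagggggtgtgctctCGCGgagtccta
Spred1: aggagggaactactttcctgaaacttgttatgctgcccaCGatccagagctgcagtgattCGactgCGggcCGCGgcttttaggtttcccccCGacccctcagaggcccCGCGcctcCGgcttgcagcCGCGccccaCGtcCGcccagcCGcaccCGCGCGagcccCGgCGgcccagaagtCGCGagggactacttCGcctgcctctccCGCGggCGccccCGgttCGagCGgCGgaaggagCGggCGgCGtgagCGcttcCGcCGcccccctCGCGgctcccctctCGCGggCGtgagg

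Density did not follow the order of CG content among these promoters. Spred1, the least marked, had the most CG dinucleotides, with 40 in 300 bases. Spry1 had 29, Dusp2 26 and Dusp6 19, against a median of 7 over 32841 RefSeq promoters of that length, of which 28.1% held at least as many as Dusp6. Over 10319 coding genes of at least 1000 bp with a promoter entry, Spearman's rho between CG count and density was −0.25, a description across genes that share libraries and base composition. The share of these genes that were marked was lowest with 0 to 5 CG dinucleotides, at 2.84%, and lay between 5.02% and 7.13% in the 6 groups with more. Only the last 50 bases of each window lie within the counted interval. The 4 promoters were also searched on both strands for sites of factors that carry ERK signals to DNA. None held the ETS core CCGGAA, found in 14.9% of all promoters, the CRE motif TGACGTCA, found in 1.79%, the AP-1 motif TGACTCA, found in 5.20%, or a CArG box, found in 1.63%. This says only that those letters are not in these windows.

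Over 2 h of 4OHT no member passed the test, and Dusp6 had the largest estimate of the 5. edgeR's quasi-likelihood test with Benjamini-Hochberg adjustment called 0 of 5 members, and among all 50037 intervals tested it called 0% higher and 0% lower. An unadjusted p under 0.05 was reached by 0.376% of intervals, by 4.15% with clone as a block in the model, and by 0.00397% in DESeq2, which also called 0%. Without the block these shares lay far below 0.05, the fraction that evenly spread p-values would give. Those fits were thus conservative, and their lack of calls does not show a lack of change. The fit with clone as a block also called 0% of the 50037 intervals higher and 0% lower. With 2 libraries per time, that does not show a lack of change either. The comparison asks whether H3K27me3 over these genes differs after 2 h of 4OHT, and these libraries do not measure RAF or ERK activity. In bulk chromatin, a lower density in each cell and fewer cells with the mark cannot be told apart. The replicates are clones of 1 line, with no further separate cultures named in the labels, and the p-values reflect only how far these libraries scatter, which may be technical.

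Among the phosphatases, Dusp6 (chromosome 10, 99263231 to 99267489) had 193 counts in clone A and 178 in clone B at 2 h, against 109 and 141 at 0 h. Its densities were 0.490 and 0.491 at 2 h, against 0.364 and 0.407 at 0 h. Both 2 h libraries lay above both 0 h libraries, as they did in 10.7% of all genes. Means were 0.491 ± 0.00108 at 2 h and 0.385 ± 0.0309 at 0 h (SD, n = 2 each), a log2 change of 0.34 (SE 0.15, adjusted p = 1.00 by edgeR). The 95% interval of that change ran from −0.02 to 0.71, and from 0.04 to 0.64 with clone as a block, where the adjusted p was again 1.00. Within clone A the log2 ratio was 0.43, with an exact binomial 95% interval of 0.08 to 0.78. Within clone B it was 0.27, with an interval of −0.06 to 0.60. These intervals cover counting error between 2 libraries only, and reads without molecular identifiers are not independent molecules. Of 10 groups of equal size by density, that of Dusp6 had median log2 ratios of −0.02 in clone A and −0.02 in clone B.

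The last 626 bp of Dusp6 are shared with Gm34921, an interval on the other strand whose reads this counting may share. Gm34921 had values on the other side: its densities were 0.195 and 0.215 at 2 h, against 0.228 and 0.258 at 0 h, with log2 ratios of −0.23 in clone A and −0.27 in clone B. With 65 to 85 counts a library it did not pass either (log2 −0.25, SE 0.19, adjusted p = 1.00 by edgeR). Dusp6 was 1.95 times as dense as Gm34921 over the 4 libraries.

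Dusp2 (chromosome 2, 127336159 to 127338377) had densities of 3.87 in clone A and 3.55 in clone B at 2 h, against 3.64 and 3.28 at 0 h. Each clone had its higher value at 2 h, but the 2 h and 0 h libraries overlapped. Means were 3.71 ± 0.225 at 2 h and 3.46 ± 0.259 at 0 h (SD, n = 2 each), and the log2 change was 0.10 (SE 0.13, adjusted p = 1.00 by edgeR), with a 95% interval of −0.20 to 0.40. In fold terms the interval ran from 0.870 to 1.32. With clone as a block the 95% interval of the log2 change was −0.07 to 0.27.

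Dusp4 (chromosome 8, 34807610 to 34819894), a second nuclear phosphatase, had densities of 1.13 and 1.31 at 2 h, against 1.17 and 1.25 at 0 h. The 2 h values lay on either side of the 0 h values. Means were 1.22 ± 0.127 at 2 h and 1.21 ± 0.0524 at 0 h (SD, n = 2 each), a log2 change of 0.01 (SE 0.12), with a 95% interval of −0.27 to 0.29. With clone as a block the interval was −0.12 to 0.15.

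Of the inhibitors that act on RAS and RAF, Spry1 (chromosome 3, 37639947 to 37644599) had densities of 0.630 in clone A and 0.849 in clone B at 2 h, against 0.626 and 0.732 at 0 h. Clone B at 2 h stood above the other 3 libraries. Means were 0.739 ± 0.155 at 2 h and 0.679 ± 0.0752 at 0 h (SD, n = 2 each), with a log2 change of 0.11 (SE 0.18) and a 95% interval of −0.31 to 0.54. With clone as a block the interval was −0.12 to 0.35.

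Spred1 (chromosome 2, 117121071 to 117182279) had densities of 0.137 in clone A and 0.189 in clone B at 2 h, against 0.153 and 0.161 at 0 h. The 2 h libraries were the lowest and the highest of the 4. Means were 0.163 ± 0.0366 at 2 h and 0.157 ± 0.00614 at 0 h (SD, n = 2 each), with a log2 change of 0.05 (SE 0.16) and a 95% interval of −0.34 to 0.43. With clone as a block the interval was −0.12 to 0.19. Within clone A the log2 ratio was −0.16, with an exact binomial 95% interval of −0.31 to −0.00, and within clone B it was 0.23, with an interval of 0.09 to 0.36. Genes of its density group leaned the same ways, with medians of −0.06 in clone A and 0.08 in clone B, and the part of that trend in the Spred1 values was not tested. Density lower at 2 h in clone A and higher in clone B was seen in 29.5% of all genes. The second, shorter Spred1 interval, which ends at 117172854, gave −0.14 in clone A and 0.19 in clone B. Its reads are also counted in the longer one.

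Density was higher at 2 h in both clones for 3 of the 5 genes, Dusp2, Dusp6 and Spry1, and for 27.3% of all genes. For Spry1 the ratio within clone A was only 0.01 on the log2 scale. With 1 library left out, the log2 change took the other sign for Dusp4 when the 0 h library of clone A (−0.03) or the 2 h library of clone B (−0.10) was dropped, and when the 2 h library of clone B was dropped for Spry1 (−0.12) and Spred1 (−0.20).

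**Figure D2:**
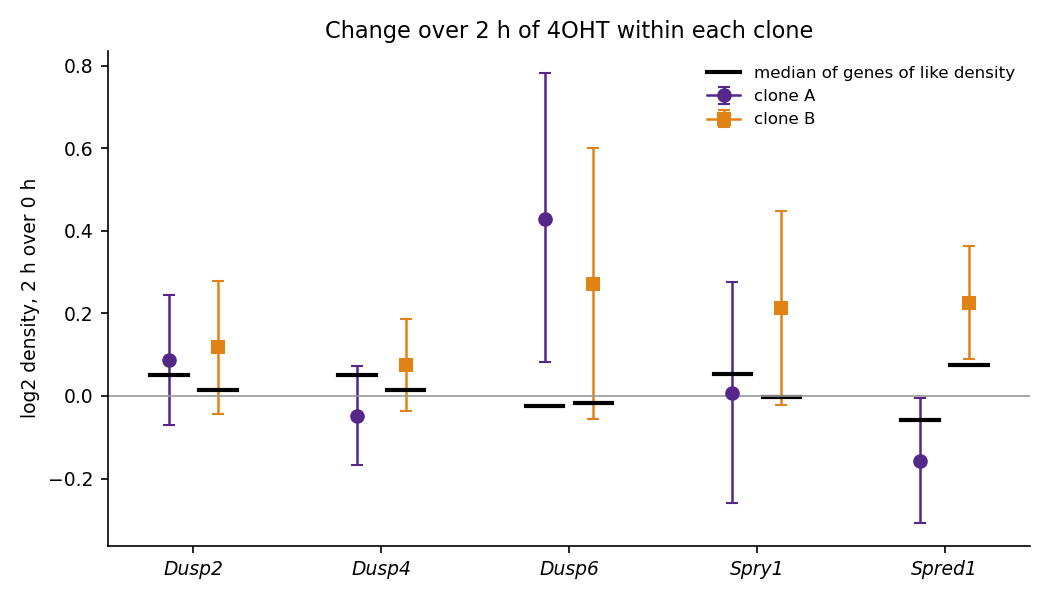
Log2 ratio of H3K27me3 density at 2 h over 0 h for each gene within clone A (circles) and clone B (squares), with exact binomial 95% intervals that cover counting error only; thick black bars give the median of genes in the same density group. Dusp6 has the highest ratio in both clones (0.43 and 0.27), and Spred1 lies on opposite sides of 0 (−0.16 and 0.23).

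More intervals were called between the clones than between the times. With libraries grouped by clone, edgeR's quasi-likelihood test called 17.3% of intervals higher and 10.3% lower in clone A than in clone B. Each side of this comparison holds the 0 h and 2 h libraries of the same clone. Its p-values reflect scatter between libraries of a clone and not variation among clones. Of the members, 0 of 5 were called higher and 2 of 5 lower, Spred1 and Spry1. Spred1 averaged 0.145 ± 0.0111 in clone A, against 0.175 ± 0.0194 in clone B (SD, n = 2 libraries each), a log2 difference of −0.26 (SE 0.08, adjusted p = 0.00430 by edgeR). Spry1 averaged 0.628 ± 0.00248 in clone A, against 0.791 ± 0.0824 in clone B (SD, n = 2 each), a log2 difference of −0.31 (SE 0.12, adjusted p = 0.0300 by edgeR). For both genes both clone A libraries lay below both clone B libraries, as they also did for Dusp4, a pattern seen in 31.9% of all genes. DESeq2 did not call Spred1 (adjusted p = 0.0512) or Spry1 (adjusted p = 0.146). Spred1 lost its call when the 2 h library of clone A (log2 −0.19, adjusted p = 0.122 by edgeR) or of clone B (−0.18, 0.197) was dropped. Spry1 lost it when the 0 h library of clone A (−0.30, adjusted p = 0.118 by edgeR), its 2 h library (−0.33, 0.110) or the 2 h library of clone B (−0.24, 0.236) was dropped.

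The ratio of the clones was also taken at each time. At 2 h the log2 ratio of clone A over clone B was −0.46 for Spred1, with an exact binomial 95% interval of −0.60 to −0.33, and −0.43 for Spry1, with an interval of −0.67 to −0.20. At 0 h it was −0.08 for Spred1 (−0.23 to 0.07) and −0.23 for Spry1 (−0.49 to 0.04). For Spry1 the intervals of the times overlapped. Whether the ratio differed between times was not tested, because each clone has 1 library per time.

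The phosphatases did not pass between the clones. Dusp4 averaged 1.15 ± 0.0267 in clone A, against 1.28 ± 0.0474 in clone B (SD, n = 2 each), a log2 difference of −0.13 (SE 0.07, adjusted p = 0.133 by edgeR). Dusp2 averaged 3.76 ± 0.162 in clone A, against 3.42 ± 0.197 in clone B, a log2 difference of 0.16 (SE 0.08, adjusted p = 0.146 by edgeR). Both its clone A libraries lay above both clone B libraries, as they did in 28% of all genes. Dusp6 gave −0.04 (SE 0.15, adjusted p = 0.890 by edgeR).

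The difference between the clones varied with density over the whole table. In the densest of the 10 groups, which holds Dusp2 and Dusp4, the median log2 difference of clone A minus clone B was 0.17, with 46.4% of its genes called higher in clone A, and 6.22% lower. Dusp2, at 0.16, lay close to that median, and Dusp4, at −0.13, on the other side of 0. In the groups that hold Spry1 and Spred1 the medians were 0.02 and −0.02, against −0.31 and −0.26 for the genes themselves. Of the genes in those groups 13.7% and 9.97% were called lower in clone A. The part of this trend in the members' values was not tested.

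**Figure D3:**
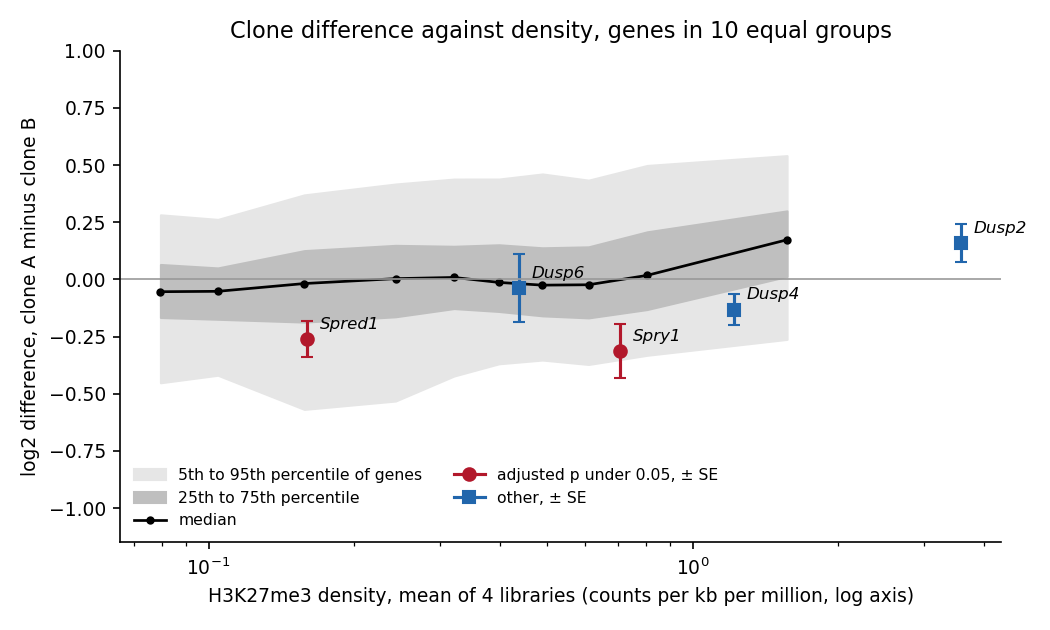
Log2 difference of clone A minus clone B against mean H3K27me3 density (counts per kb per 1000000 counts, log axis), with the median and percentile bands of all tested genes in 10 groups of equal size and the 5 genes with ± SE. Spry1 (−0.31) and Spred1 (−0.26), in red, passed the test. Dusp2 (0.16) lies close to the median of the densest group (0.17), and Dusp4 (−0.13), in the same group, on the other side of 0.

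The surroundings of the members differed. Dusp2 stood out from its flanks: Gm46762, which lies 607 bp upstream on the other strand, had a mean density of 1.38 ± 0.0932, and Astl, a metalloprotease gene that starts 261 bp downstream, 1.27 ± 0.0852 (SD, n = 4 libraries). Dusp2, at 3.59 ± 0.246, was 2.60 times as dense as Gm46762 and 2.83 times as dense as Astl, and all 4 Dusp2 libraries lay above every library of both. The first 2997 bp of Astl, obtained by subtracting the counts of a shorter Astl interval from a longer one, had 1.19 ± 0.0928, beside 1.28 ± 0.0896 in the rest of Astl. On the upstream side the 10634 bp of Gm46762 nearest Dusp2 had 1.57 ± 0.0853, and the more distant 3253 bp 0.767 ± 0.123.

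Around Dusp4, the nearest interval within 20 kb was Tnks, a tankyrase gene on the other strand, whose nearer end lies 9284 bp downstream of the Dusp4 end. It had 0.0931 ± 0.00731, so that Dusp4 was 13.1 times as dense. Beside Spry1, Gm46799, which lies 8080 bp downstream, had 0.778 ± 0.0446 against 0.709 ± 0.105 for Spry1, and their ranges over the 4 libraries overlapped. No other interval lay within 20 kb of Spred1. The last 9425 bp of Spred1, covered only by its longer interval, had 0.171 ± 0.0364, against 0.158 ± 0.0191 for the rest of the gene.

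**Figure D4:**
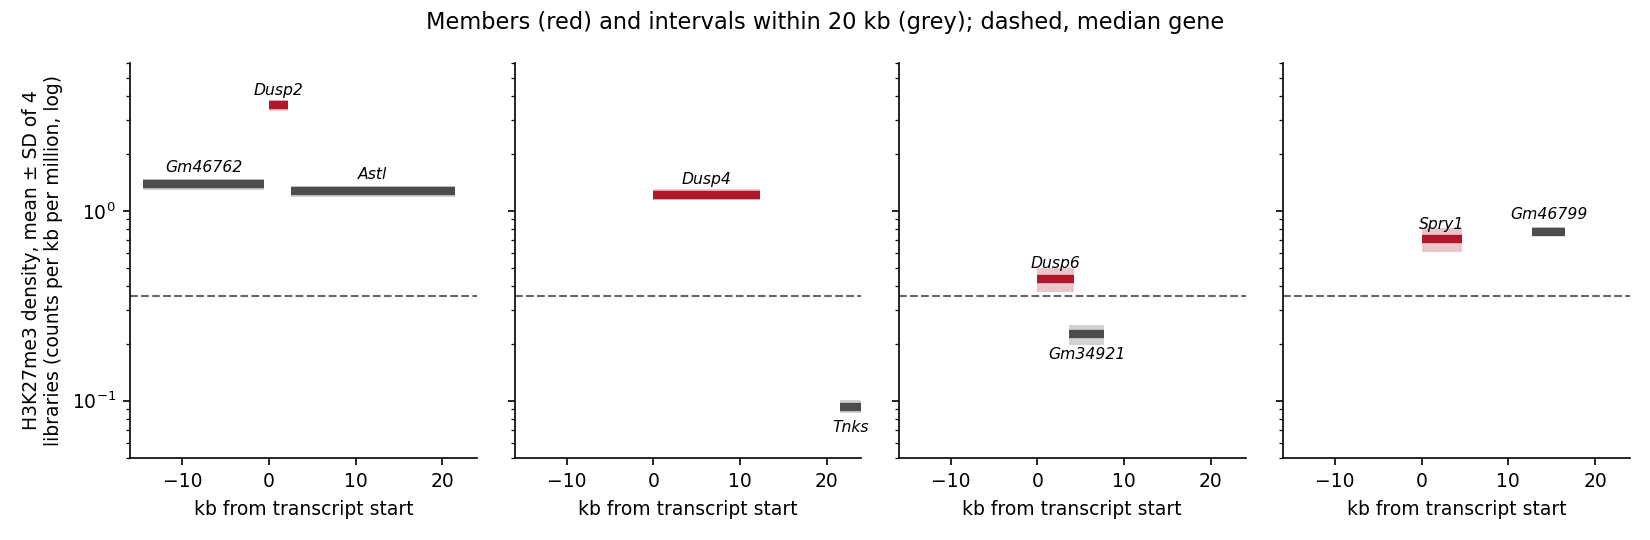
Mean H3K27me3 density (counts per kb per 1000000 counts, log axis) with ± SD over 4 libraries (shaded) of Dusp2, Dusp4, Dusp6 and Spry1 in red and of named intervals within 20 kb in grey, by distance from the transcript start in kb; Tnks runs on past the right edge. Dusp2 (3.59) stands above both flanks (1.38 and 1.27), while Spry1 (0.709) and Gm46799 (0.778) are level.

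Related genes of the pathway were read from lists in which 36 of 55 genes had an interval; the others were not analysed here. Of the other MAP kinase phosphatases 5 of 7 were measured, with a median of 1.92 times the median gene. Dusp8, which acts mainly on stress kinases, was the 1 marked gene among them at 7.90 times. Dusp7, a cytoplasmic ERK phosphatase, stood at 2.36 times, Dusp9, of the same family and known for ERK control in naive stem cells, at 1.92, Dusp10 at 0.828 and Dusp16 at 0.581. Spred3, the 1 measured gene of the other Sprouty and Spred genes, stood at 1.25 times. The median of the 5 members was 1.99 times and that of all genes tested 1.01.

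The genes that carry the signal all lay below the median gene, and most of the measured transcription factor genes that ERK induces were marked. All 11 measured genes of the RAS-RAF-MEK-ERK cascade lay between 0.202 and 0.430 times the median gene, with Mapk3, which encodes ERK1, at 0.233. Spred1, at 0.448, lay just above that range. Among the ERK-induced transcription factor genes 6 of 8 were marked, beside 5.78% of all genes, and Egr4 reached 12.2, Jun 6.88 and Fosb 5.07 times. Junb at 0.755 and Ier2 at 0.326 times, the others of this list, lay below the median gene. Over whole transcripts, mark confined to a promoter counts for less in the 122427 bp of Braf than in the 2421 bp of Egr4. The lists were also chosen with earlier results of these data known, so the contrast between them is a description only. Other negative regulators, 11 of 16 measured, had a median of 0.771 times with 0 marked, from Pebp1, which binds RAF, at 0.185 to Rasal1, a RAS GTPase activator, at 1.64.

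Over 2 h, 0 of the 36 genes passed in either direction by edgeR, also with clone as a block. Median log2 changes were 0.10 for the members, 0.09 for the other phosphatases, 0.04 for the other negative regulators, 0.05 for the cascade and 0.12 for the transcription factors, beside 0.00 for all genes tested. The median of all genes varied with density: of the 10 groups, the least dense had 0.05, the 5th −0.03 and the densest 0.03. All cascade genes lay in the 3 least dense groups, and Egr4, Jun and Fosb in the densest. The part of this trend in the list medians was not tested. Of the members Dusp6 (0.34) lay above every listed gene but Shc1, an adaptor between receptors and RAS. Shc1 gave 0.65 at a density of 0.0877 ± 0.0261 (SD, n = 4), with 0.29 in clone A and 1.00 in clone B (adjusted p = 1.00 by edgeR). Mapk3 gave 0.26, Ier2 0.26, Dusp9 0.18, Dusp7 0.17, Fosb 0.16, Errfi1, an inhibitor of EGF receptors, 0.16, and Dusp16 −0.12. Between the clones, the test called 6 of the 36 higher and 2 lower in clone A, beside 3076 higher and 2013 lower of all 19948 genes tested. Those called higher were Rasal1 at 0.46 (SE 0.06, adjusted p = 1.69e-11 by edgeR), Egr4 at 0.38, Dusp9 at 0.37, Atf3 at 0.36, Dab2ip at 0.20 and Rasal2 at 0.19. Those called lower were Errfi1 at −0.27 and Rasa3 at −0.22.

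**Figure D5:**
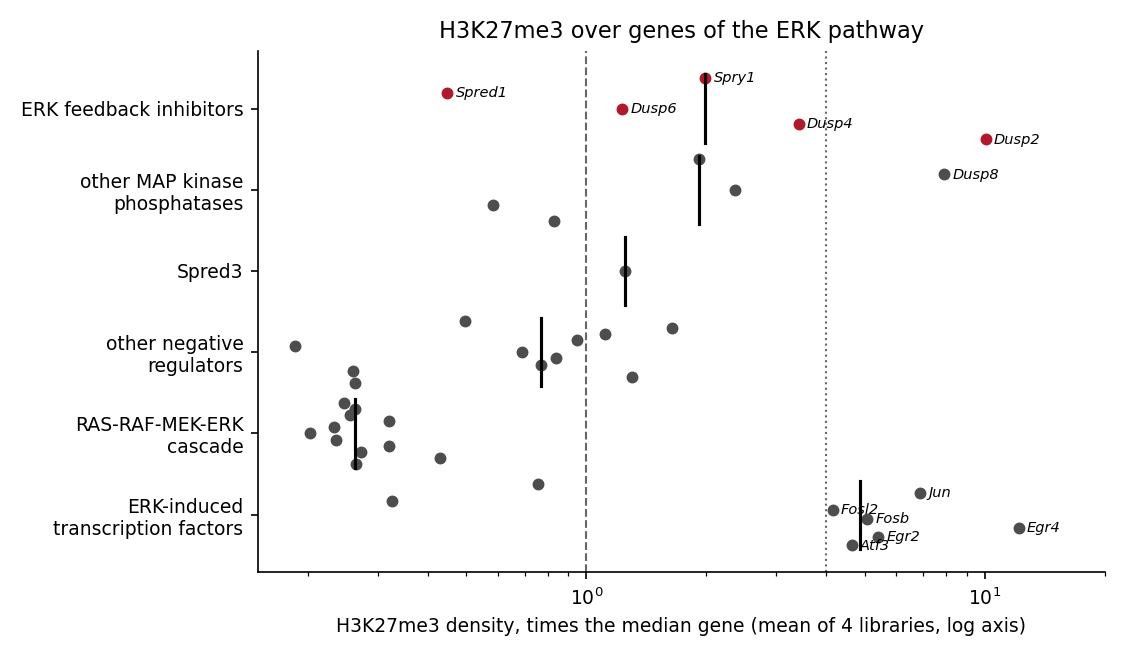
H3K27me3 density as a multiple of the median gene (mean of 4 libraries, log axis) for the 5 ERK feedback inhibitors (red) and for listed pathway genes (grey), with bars at each list's median; dashed and dotted lines mark 1 and 4 times the median gene. The cascade genes lie between 0.202 and 0.430 and 6 transcription factor genes above 4, with the feedback inhibitors spread from 0.448 to 10.0. The lists were chosen with earlier results of these data known.

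For each member the 3 coding genes of at least 1000 bp with the nearest densities over the 4 libraries were found by the root mean square difference of log2 density. They were Cracr2b, Enho and Igf2 for Dusp2, at differences of 0.0172 to 0.0411, and AA986860, Syt8 and Wfdc10 for Dusp4, at 0.0273 to 0.0545. Those of Spry1 were Gp2, Fga and Lce1e, at 0.0466 to 0.0620, and those of Spred1 were Mras, Noct and Slc27a4, at 0.0533 to 0.0595. Dusp6 had no gene as close: Taar3, Ccn5 and Inmt lay at 0.102 to 0.106. Dusp6 also had the fewest counts of the members, 109 to 193 a library. The part of counting error in these differences was not tested. Taar3, for example, had 0.450 and 0.490 at 2 h, against 0.399 and 0.381 at 0 h. With 4 libraries, such likeness describes level and library order together.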

How the data were processed

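H3K27me3 ChIP-seq was read from 4 libraries, clones A and B at 2 h and 0 h, of a series of 8 samples. Per the file headers, the deposited table gives for each interval a raw count, a whole number of reads. An interval spans an annotated transcript, introns included, on chromosomes 1 to 10, X, Y and M. Bowtie2, bedtools and mm10 are named in the submitters' processing notes, with no versions; chromatin was fixed in 1% formaldehyde for 10 min, per the labels. A further 12 per-library columns were not used. Counting strand is not given in the sources used here, and 84.8% of the 50398 intervals overlap another, so reads can be counted more than once and a column total is no sequencing depth.

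Intervals were named by RefSeq genes of GRCm38.p6 (shared stretch 0.5 or more of the joint span, 0.2 above the next gene), which named 43793 (86.9%); values per gene come from the best-matching interval. Starts are printed 1-based. The main test across all intervals was edgeR 4.0.16 (R 4.3.3) with TMM factors, filterByExpr and an adjusted p of 0.05, fitted to time alone or clone alone. DESeq2 1.42.0 was run as an alternative, as were other scaling factors, other filters, 1 interval per gene, and leaving out each library. A further alternative added a block, clone in the test of time and time in the test of clone. The clone letters pair the libraries: same-letter libraries deviated together (r = 0.531 over 50037 intervals). Named genes were all members, listed pathway genes, checks of the mark, the intervals beside members and the 3 genes nearest each member in density. Members and lists were chosen with earlier results of these data known. Python 3.11.15 and SciPy 1.17.1 were used for intervals.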

Additional observations from a re-analysis of the deposited data

Results flagged for a closer look

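Spred1 and Dusp4 went opposite ways over 2 h in the 2 clones. For Spred1 the log2 ratio of 2 h over 0 h was −0.16 in clone A, against 0.23 in clone B, a difference of −0.38. For Dusp4 it was −0.05 in clone A, against 0.08 in clone B, a difference of −0.12. With 1 library per clone and time neither difference was tested. Among genes of the Spred1 density group the medians were −0.06 in clone A and 0.08 in clone B, and in that of Dusp4 0.05 and 0.01.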

How the results depend on the processing

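No member passed over 2 h under any alternative run. With clone as a block the Dusp6 change was 0.34. No member's call changed when a block was added, clone in the test of time and time in the test of clone. Without single libraries the changes over 2 h ranged from −0.10 to 0.094 for Dusp4, −0.12 to 0.30 for Spry1 and −0.20 to 0.24 for Spred1, while Dusp2 (0.02 to 0.18) and Dusp6 (0.26 to 0.42) kept their sign; 0 intervals were called higher and 0 to 1 lower. Clone A minus clone B ranged from −0.41 to −0.24 for Spry1, −0.36 to −0.18 for Spred1 and −0.30 to 0.15 for Dusp6. A fit without 1 library leaves 1 arm with a single library, assumed to vary like the others. DESeq2 gave −0.32 for Spry1 and −0.27 for Spred1, neither of them called. Intervals called higher and lower in clone A were 8633 and 5132, with 5666 and 3028 in DESeq2, 3181 and 2110 with 1 interval per gene, where fewer intervals are tested, and 5252 to 8087 and 3414 to 4398 without single libraries. Against the median coding gene of at least 1000 bp, densities were 12.9 times for Dusp2, 4.39 for Dusp4, 1.58 for Dusp6, 2.56 for Spry1 and 0.577 for Spred1, which puts Dusp4 over 4 times. Counts of 109 to 193 limit the precision for Dusp6.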
